A study of Mus musculus with 8 samples.

Results

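Antiviral interferon-stimulated genes were followed in mouse CD4 T cells activated with and without added iron. The set holds 42 genes chosen by symbol, and each was found in the gene-level files, which hold 57010 genes. Of the 42, 29 are in the authors' normalised table of 13751 genes, and 28 passed the filter on low counts and entered a test over 13378 genes. The 14 members that were not tested are described by their counts alone.

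The libraries come from naive CD4 T cells of wt C57BL/6 mice, which were sorted from their peripheral lymph nodes. All cultures were activated for 20 h on coated antibodies to CD3 and CD28 (4 µg/mL of each); these trigger the antigen receptor of the T cell together with costimulation. The FAC group is 4 cultures, from mice 1 to 4, that received iron supplementation, which the labels call FAC. The control group is 4 cultures of the same 4 mice without it. The dose of iron, any vehicle in the control cultures, and the age and sex of the mice are not stated in the labels. Each mouse gave 1 culture per condition, so a difference between groups is measured over 4 animals and 1 cell preparation each.

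Type I and type III interferons bind receptors that signal through the kinases Jak1 and Tyk2 to a complex that holds Stat2 and Irf9, and this complex binds the interferon-stimulated response element (ISRE). Interferon gamma signals through Jak1 and Jak2 to factors that bind the gamma-activated site (GAS). The genes induced in this way encode proteins that detect viral nucleic acid, degrade or edit RNA, block virus entry or release, and modify other proteins. Activated CD4 T cells are themselves a source of interferon gamma.

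Library totals ran from 25410299 to 37350654 expected counts, and 3 counts in a library, the limit used for a count of 0, correspond to 0.0803 to 0.118 CPM (counts scaled to a common library total). All 7 CD4 T cell markers were expressed, with a summed level of 2667 to 2757 CPM in FAC libraries and 2557 to 2640 CPM in control libraries. The sum was higher in every FAC library than in any control library. Of these markers Cd5 was itself higher with FAC (log2 change 0.14, edgeR adjusted p = 0.0304), while the estimates of Cd3d, Cd3e and Cd4 were slightly negative. Markers of other cell types were lower by far. The dendritic cell markers summed to 2.24 to 3.59 CPM in FAC libraries and 2.28 to 2.97 CPM in control libraries, nearly all of it Zbtb46 (2.09 to 3.56 CPM in FAC libraries and 2.12 to 2.81 CPM in control libraries), with Clec9a at 0. The plasmacytoid dendritic cell markers summed to 0.156 to 0.482 CPM in FAC libraries and 0.246 to 0.357 CPM in control libraries, with Siglech and Klk1 at 0 counts throughout. The myeloid markers summed to at most 0.552 CPM in FAC libraries and 0.544 CPM in control libraries, with Lyz2 at 0. The NK cell markers summed to at most 0.184 CPM in FAC libraries and 0.381 CPM in control libraries, with Ncr1 at 0. The B cell markers summed to at most 0.379 CPM in FAC libraries and 0.387 CPM in control libraries. The CD8 T cell markers summed to 6.26 to 8.99 CPM in FAC libraries and 7.99 to 10.9 CPM in control libraries. Nearly all of it was Cd8b1 (6.14 to 8.86 CPM in FAC libraries and 7.85 to 10.8 CPM in control libraries). Cd8a had at most 0.379 CPM in FAC libraries and 0.141 CPM in control libraries. Erythroid markers summed to at most 0.191 CPM in FAC libraries and up to 2.93 CPM in control libraries. The 2.93 CPM is control library 3, where Hba-a1, Hbb-bs and Hbb-bt had 46, 29 and 13 counts, with 0 in every other library. The part of these cell types in the results was not tested.

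Promoter windows, from 250 bases before to 50 after the annotated start, were available from RefSeq for 32 of the 42 members on build GRCm38.p6, an earlier build than the GRCm39 named in the submitters' processing notes. An ISRE core (GAAANNGAAA, either strand) was found in 15 of these 32 members, or 46.9%, against 1079 of 27025 genes in the whole promoter table, or 3.99%. A GAS (TTCNNNGAA, either strand) was found in 8 of the 32 members, or 25.0%, against 9.55% of genes in the table. These are matches of letters and not measured binding. The members differed from one another, and 6 windows are shown: those of Sp110, Bst2 and Ifitm2, the 3 members with the highest levels, that of Lgals3bp, whose counts and length-scaled levels ran in opposite directions, and those of Ifit2 and Ifit1, genes of 1 cluster, which were chosen after their unequal levels were seen. Capitals mark ISRE and GAS matches and each window runs 5′ to 3′ along its gene. Ifitm2 (chr7:140955912-140956211, minus strand) holds an ISRE core from 46 to 37 bases before the start. Bst2 (chr8:71537423-71537722, minus strand) holds a GAS and 2 ISRE cores that overlap one another, between 136 and 115 bases before the start. Sp110 (chr1:85603842-85604141, minus strand) and Lgals3bp (chr11:118401910-118402209, minus strand) hold neither motif, Sp110 in neither of its 2 annotated windows. Ifit2 (chr19:34550444-34550743, plus strand) holds a GAS from 241 to 233 bases before its start, and Ifit1 (chr19:34640639-34640938, plus strand) holds 2 ISRE cores that read on the opposite strand, from 104 to 95 and from 85 to 76 bases before its start.
Ifitm2: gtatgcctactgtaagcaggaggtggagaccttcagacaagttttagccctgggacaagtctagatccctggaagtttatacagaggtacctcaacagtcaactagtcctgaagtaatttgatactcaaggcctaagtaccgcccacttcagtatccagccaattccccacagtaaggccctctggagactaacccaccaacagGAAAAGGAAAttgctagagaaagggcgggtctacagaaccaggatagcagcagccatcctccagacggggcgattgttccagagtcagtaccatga
Bst2: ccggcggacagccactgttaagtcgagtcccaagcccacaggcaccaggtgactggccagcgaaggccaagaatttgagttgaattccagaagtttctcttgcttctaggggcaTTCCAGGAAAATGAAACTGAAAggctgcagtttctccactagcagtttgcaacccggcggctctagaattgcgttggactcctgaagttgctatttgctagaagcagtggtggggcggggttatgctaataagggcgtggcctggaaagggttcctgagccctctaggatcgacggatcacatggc
Sp110: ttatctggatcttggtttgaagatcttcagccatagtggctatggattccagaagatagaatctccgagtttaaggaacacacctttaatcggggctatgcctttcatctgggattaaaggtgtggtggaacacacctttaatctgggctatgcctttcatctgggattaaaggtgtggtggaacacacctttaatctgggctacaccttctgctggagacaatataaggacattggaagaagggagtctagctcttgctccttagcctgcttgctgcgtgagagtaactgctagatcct
Lgals3bp: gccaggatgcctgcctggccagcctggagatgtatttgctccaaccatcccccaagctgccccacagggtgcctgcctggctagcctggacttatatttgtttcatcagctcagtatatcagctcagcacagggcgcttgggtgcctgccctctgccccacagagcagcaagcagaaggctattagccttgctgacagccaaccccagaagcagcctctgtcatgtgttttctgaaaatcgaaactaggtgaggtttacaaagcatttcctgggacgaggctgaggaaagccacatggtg
Ifit2: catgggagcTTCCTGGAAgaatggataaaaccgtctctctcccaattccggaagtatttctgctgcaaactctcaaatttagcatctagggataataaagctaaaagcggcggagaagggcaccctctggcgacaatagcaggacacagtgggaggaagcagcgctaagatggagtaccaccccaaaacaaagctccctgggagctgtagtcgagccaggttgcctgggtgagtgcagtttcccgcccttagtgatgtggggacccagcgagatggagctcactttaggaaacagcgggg
Ifit1: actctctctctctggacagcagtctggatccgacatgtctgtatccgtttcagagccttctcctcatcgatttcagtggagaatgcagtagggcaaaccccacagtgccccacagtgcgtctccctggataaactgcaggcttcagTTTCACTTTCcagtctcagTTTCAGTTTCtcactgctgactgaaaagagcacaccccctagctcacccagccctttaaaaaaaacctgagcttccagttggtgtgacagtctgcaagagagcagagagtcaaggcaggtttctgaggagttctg

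The ISRE core occurred in low and in abundant members. It was found in 6 of 11 members that were too low to test and in 9 of 21 that were tested. By level, it was found in 7 of 14 members with a mean below 1 TPM (counts scaled for transcript length and library total) and in 2 of 7 members with a mean of at least 10 TPM.

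The levels of the members spanned a wide range within the same cells. In TPM, the scale on which genes can be compared with one another, 8 members averaged at least 10 over the 8 libraries, 16 averaged 1 to 10 and 18 averaged less than 1. The 8 highest were Sp110, Bst2, Ifitm2, Trim25, Adar, Sp100, Ifi35 and Ifi27l2a. Sp110, a nuclear body protein gene, was the highest, with 123, 117, 122 and 116 TPM in FAC libraries 1 to 4 and 120, 117, 116 and 119 TPM in control libraries 1 to 4. Bst2, which encodes tetherin, a membrane protein that holds budding virus at the cell surface, had 92.6, 96.8, 91.3 and 97.6 TPM in FAC libraries and 98.9, 103, 104 and 98.3 TPM in control libraries. Sp110 groups overlapped, whereas every FAC library was below every control library for Bst2.

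**Figure D1:**
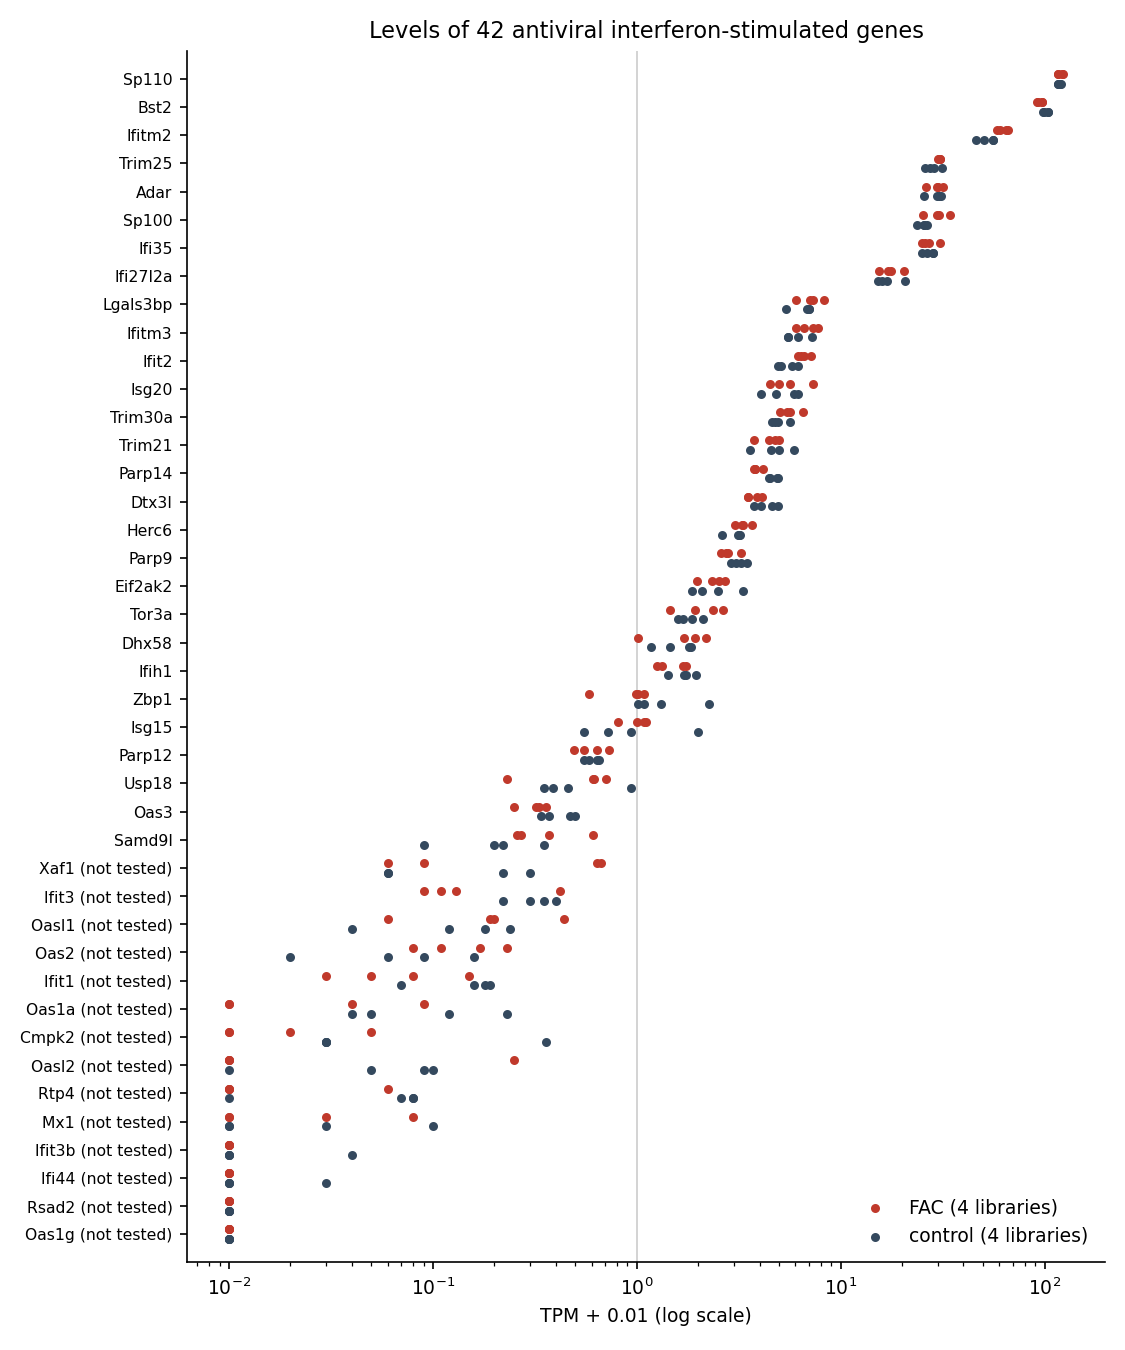
Level of each of the 42 members in every library, as TPM + 0.01 on a log axis, ordered by the mean over the 8 libraries, with FAC points above control points in each line. Members run from Sp110 near 119 TPM down to Oas1g and Rsad2 at 0, and "not tested" marks the 14 members removed by the filter on low counts.

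At the bottom of that order were 14 members too low to test. Rsad2, which encodes viperin, an enzyme that makes a chain-terminating nucleotide, had 0 counts in all 8 libraries, and so did Oas1g. Cmpk2, the neighbour of Rsad2 and a mitochondrial nucleotide kinase gene, had 3 counts in the FAC libraries together and 7 in the control libraries together. Mx1, a dynamin-like GTPase gene, had 2 counts in FAC libraries and 3 in control libraries, and Ifi44 had 0 in FAC libraries and 1 in control libraries. No library held more than 17 counts of any of the 14 untested members, and 7 of them had at most 10 counts over all 8 libraries. Summed over the 14, the counts were 32, 45, 28 and 23 in FAC libraries and 27, 54, 40 and 49 in control libraries, and the groups overlapped. Scaled for library size, the sums were 1.02, 1.38, 0.963 and 0.900 CPM in FAC libraries and 1.07, 1.47, 1.32 and 1.72 CPM in control libraries. On this scale FAC was the lower of the pair in 4 of 4 mice. The same held for Ifit1, Ifit3, Oas1a and Cmpk2 singly, while 0 of the 14 members were higher in 4 of 4 mice. Some of these signs are near ties. Cmpk2 had 1 count in each library of mouse 1, and Ifit3 had 0.460 CPM with FAC and 0.462 CPM in the control of mouse 2. These low counts were not tested. Isg15, the ubiquitin-like modifier, averaged 0.993 TPM in FAC libraries and 1.04 TPM in control libraries.

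Summed over all 42 members, the level was 474, 472, 479 and 467 TPM in FAC libraries and 458, 458, 454 and 467 TPM in control libraries. Every FAC library was above every control library, with FAC library 4 less than 1 TPM above control library 4. The sum is carried by the few most abundant genes, and no test was made of it.

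With FAC, 1 of the 28 tested members was called lower and 0 were called higher at an adjusted p under 0.05 in edgeR's quasi-likelihood test. That is 3.57% of tested members, against 3.27% of all genes tested (2.18% higher and 1.1% lower). The members were chosen with earlier results of these data known, so such shares are a description and no test of the set. At an unadjusted p under 0.05 there were 2 members higher and 5 lower, 25.0% of those tested against 18.4% of all genes. DESeq2 called 2 members lower and 0 higher, against 2.23% lower and 3.73% higher (5.96% together) of all genes. With the mouse as a block, edgeR called 1 member higher and 2 lower, or 10.7% of those tested against 6.87% of all genes (4.07% higher and 2.8% lower). Estimated changes were positive for 14 members and negative for 14, with a median of 0.00 on the log2 scale, the same as the -0.00 of all genes tested. Within the single mice 1 to 4 the members' median was 0.03, -0.06, 0.04 and -0.01. Single estimates ran from -0.69 for Zbp1 to 0.66 for Samd9l, both low genes. These are bulk libraries, in which fewer cells of a type and less RNA per cell cannot be told apart.

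For 21 of the 28 members (75.0%) the 95% interval of the change lay within 1.5-fold in either direction, against 72.7% of all genes tested. The remaining 7 members had intervals reaching beyond 1.5-fold. They include Isg15, with a log2 change of -0.16 and an interval from -1.09 to 0.78, and Usp18, which removes Isg15 from proteins, with -0.00 and -0.81 to 0.81. For both, the interval holds changes of 1.5-fold in either direction, so a change of that size is not excluded. The libraries of the groups did not overlap for 6 members (21.4%), with FAC higher in 3 (Ifitm2, Trim30a and Sp100) and lower in 3 (Bst2, Parp14 and Lgals3bp), against 11.1% of all genes tested (6.17% FAC higher and 4.89% FAC lower).

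**Figure D2:**
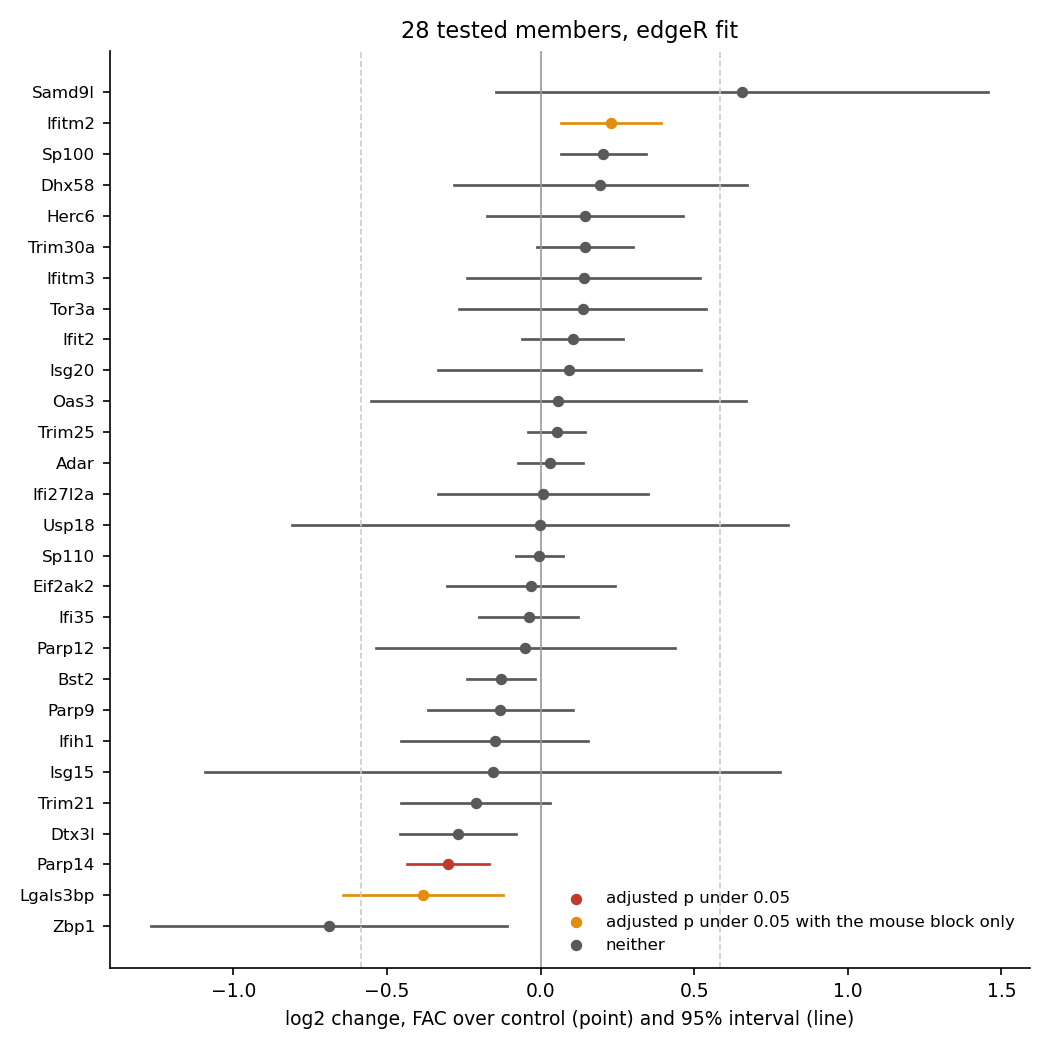
Log2 change of the 28 tested members, FAC over control (points), with 95% intervals (lines). Dashed lines mark 1.5-fold in either direction; Parp14 at -0.30 passed the test, Ifitm2 at 0.23 and Lgals3bp at -0.38 passed in edgeR only with the mouse as a block, and 21 intervals lie inside the dashed lines.

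Among the OAS family, whose products make the 2-5A signal that activates the nuclease RNase L, Oas3 alone passed the filter. It averaged 0.305 TPM in FAC libraries and 0.410 TPM in control libraries, yet its log2 change from counts was 0.06 ± 0.28 (SE), and the interval ran from -0.55 to 0.67. Its estimated mean transcript length, by which TPM divides, was 4498 to 4720 bases in FAC libraries. In control libraries 1 to 4 the length was 1844, 2859, 4720 and 4543 bases, and the groups overlapped. Oas1a had 4 counts in FAC libraries together and 14 in control libraries together, Oas2 had 26 in FAC libraries and 23 in control libraries, Oasl1 had 22 in FAC libraries and 17 in control libraries, and Oasl2 had 7 in FAC libraries and 4 in control libraries. The annotated transcripts of Oas1a and Oas1g are 97.5% identical over 1860 aligned positions, so reads may have been split between them.

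The IFIT genes, whose products bind viral RNA, lie in 1 gene cluster, and a single one of them was expressed at a substantial level. Ifit2 had 15.3, 14.5, 14 and 14.5 CPM in FAC libraries and 13.7, 13.0, 12.7 and 14.9 CPM in control libraries. The groups overlapped through control library 4, and the log2 change of 0.10 ± 0.08 (SE) did not pass the test (edgeR adjusted p = 0.509). In TPM, Ifit2 averaged 6.56 in FAC libraries and 5.48 in control libraries, whereas Ifit3 averaged 0.177 in FAC libraries and 0.307 in control libraries. Ifit1 averaged 0.0675 TPM in FAC libraries and 0.140 TPM in control libraries, and Ifit3b was at 0 in FAC libraries and had 1 count in control libraries. Ifit3 and Ifit3b are 97.8% identical over 1700 aligned transcript positions, so their counts are uncertain as a pair, but both were low. Ifit1 and Ifit3 were far below Ifit2 in every library. An ISRE core was found for Ifit1, whose window shown above carries 2, and also for Ifit3 and Ifit3b. For Ifit2 it was found in neither of its 2 annotated windows, of which the first is shown. The search took exact letters within these windows only, and this contrast was chosen after the levels were seen.

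The ISG15 system had 4 members tested and 0 called by edgeR, with or without the block, or by DESeq2, and 0 had an unadjusted p under 0.05. Trim25, a ubiquitin ligase that acts on the RNA sensor RIG-I, was the most abundant, with 102, 101, 108 and 99.3 CPM in FAC libraries and 96.6, 94.1, 102 and 102 CPM in control libraries. Its groups overlapped, and the log2 change was 0.05 ± 0.04 (SE; edgeR adjusted p = 0.563). Herc6, the main ligase for Isg15 in mice, averaged 3.31 TPM in FAC libraries and 3.03 TPM in control libraries.

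The sensors and RNA editors were all tested. Adar, which deaminates adenosine in double-stranded RNA, had 89.5, 87.1, 92.3 and 85.3 CPM in FAC libraries and 91.3, 79.8, 89.9 and 85.9 CPM in control libraries. The FAC values lay inside the control range except for FAC library 3, and the interval of its log2 change was narrow, from -0.07 to 0.14. The RNA sensor gene Ifih1 (MDA5) averaged 1.5 TPM in FAC libraries and 1.70 TPM in control libraries, and Eif2ak2, the double-stranded RNA-activated kinase PKR, averaged 2.38 TPM in FAC libraries and 2.44 TPM in control libraries. Zbp1, a sensor of Z-form nucleic acid that can trigger necroptosis, had 0.699, 0.706, 0.619 and 0.860 CPM in FAC libraries and 1.47, 1.14, 0.857 and 1.20 CPM in control libraries. It was lower with FAC in 4 of 4 mice and only FAC library 4 reached the lowest control library, but the log2 change of -0.69 ± 0.27 (SE) did not pass the test (edgeR adjusted p = 0.192).

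The membrane restriction factors Ifitm2 and Bst2 had opposite estimates. Ifitm2, whose product blocks fusion of viral with cellular membranes, had 23.0, 20.8, 21.2 and 23.0 CPM in FAC libraries and 20.0, 18.8, 16.3 and 19.9 CPM in control libraries. Every FAC library was above every control library. The log2 change of 0.23 ± 0.08 (SE) did not pass the test with the group alone (edgeR adjusted p = 0.125) and passed with the mouse as a block (0.0447). Bst2 had 41.4, 43.7, 40.7 and 44.3 CPM in FAC libraries and 45.1, 49.1, 46.8 and 44.6 CPM in control libraries. Its groups did not overlap, by a margin of less than 1 CPM, and the log2 change of -0.13 ± 0.05 (SE) did not pass (edgeR adjusted p = 0.204; 0.126 with the block). Ifitm3, 73.2% identical to Ifitm2 over 582 aligned transcript positions, averaged 6.91 TPM in FAC libraries and 6.09 TPM in control libraries.

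Parp14, Dtx3l and Parp9 are adjacent coding genes in the RefSeq annotation of mouse, and their products act on ADP-ribose and ubiquitin marks. Parp14 (ENSMUSG00000034422), which adds single ADP-ribose units to proteins, was the called member. It had 19.3, 21.1, 19.1 and 19.6 CPM in FAC libraries and 25.6, 23.8, 23.1 and 25.1 CPM in control libraries, or 19.8 ± 0.867 with FAC and 24.4 ± 1.16 in controls (mean ± SD, n = 4 each). The groups did not overlap, and the log2 change was -0.30 ± 0.06 (SE), or 0.811 of the control level (edgeR adjusted p = 0.0192; 0.0112 with the block). The call ended without FAC library 3 (edgeR adjusted p = 0.0765), without control library 1 (0.0653), and in limma on log2 TPM (0.296 with a pseudocount of 1) and on the log2 deposited signal (0.0619), while the log2 change stayed negative in each. Dtx3l, a ubiquitin ligase that pairs with Parp9, had 13.4, 12.1, 14 and 12.8 CPM in FAC libraries and 13.8, 15.4, 17.8 and 15.8 CPM in control libraries. Only FAC library 3 exceeded the lowest control library, and the log2 change of -0.27 ± 0.09 (SE) did not pass (edgeR adjusted p = 0.122; 0.0574 with the block). Parp9 had 5.24, 5.77, 6.61 and 5.67 CPM in FAC libraries and 6.22, 6.20, 6.69 and 6.37 CPM in control libraries, with a log2 change of -0.13 ± 0.11 (SE; edgeR adjusted p = 0.573). All 3 had lower values with FAC in 4 of 4 mice, and their estimates were negative in all 20 fits, the one described and its 19 alternatives. These fits reuse the same 8 libraries, so their shared sign is not separate evidence. Parp14 alone passed the test as described; with the block and without mouse 1, a fit added after the data had been seen, Dtx3l passed (edgeR adjusted p = 0.0409) and Parp14 did not (0.0502), and Parp14 did not pass with the block and without mouse 3 either (0.0736). That the 3 neighbours share a direction was seen in the data and not set as a comparison. Parp12 averaged 0.593 TPM in FAC libraries and 0.595 TPM in control libraries.

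**Figure D3:**
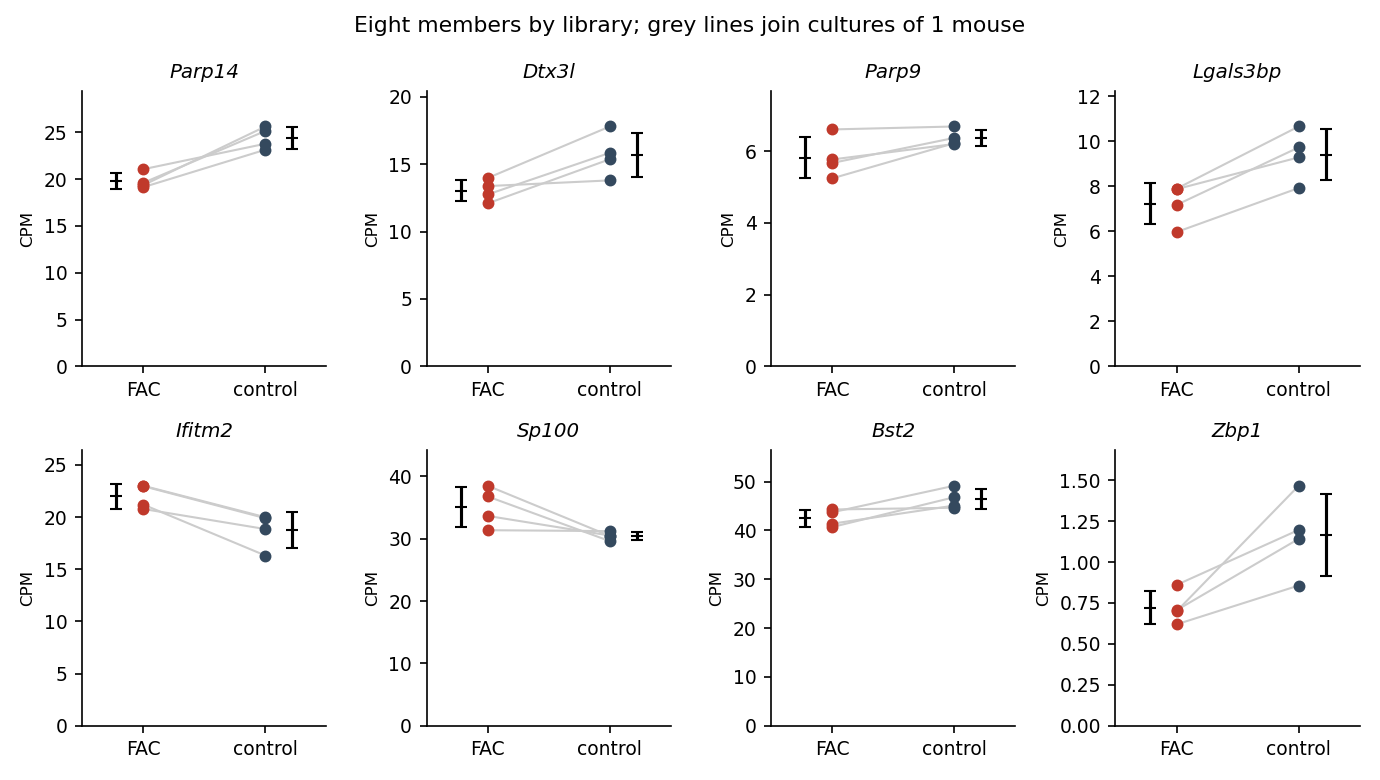
CPM of 8 members in FAC and control libraries, with mean and SD beside the points and grey lines joining the cultures of each mouse. Parp14 (19.1 to 21.1 CPM with FAC, 23.1 to 25.6 CPM in controls), Lgals3bp and Bst2 sit lower in every FAC library than in any control library, Lgals3bp on this count scale but not in TPM, and Ifitm2 and Sp100 sit higher.

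The nuclear body genes were abundant. Sp100 had 36.8, 33.7, 38.5 and 31.4 CPM in FAC libraries and 29.6, 30.5, 30.4 and 31.2 CPM in control libraries. Every FAC library was above every control library, with FAC library 4 nearest to them, and the log2 change of 0.20 ± 0.06 (SE) was the closest of the positive changes to passing (edgeR adjusted p = 0.105). It passed without FAC library 4 (edgeR adjusted p = 0.0321). Sp110 had 158, 151, 155 and 148 CPM in FAC libraries and 154, 156, 150 and 154 CPM in control libraries, and its interval was the narrow -0.08 to 0.07. Of the TRIM genes, Trim30a had 13.1, 12.9, 13.4 and 14 CPM in FAC libraries and 12.3, 12.4, 12.0 and 11.6 CPM in control libraries. Its groups did not overlap, and the log2 change of 0.14 ± 0.07 (SE) did not pass (edgeR adjusted p = 0.317). Trim21, a cytosolic antibody receptor gene, averaged 4.47 TPM in FAC libraries and 4.75 TPM in control libraries.

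Lgals3bp (ENSMUSG00000033880), a secreted glycoprotein gene, gave a different answer from counts and from length-scaled values. In counts it had 5.97, 7.18, 7.88 and 7.90 CPM in FAC libraries and 7.93, 9.74, 9.29 and 10.7 CPM in control libraries, so the groups just failed to overlap. The log2 change was -0.38 ± 0.12 (SE), which did not pass with the group alone (edgeR adjusted p = 0.109), passed with the mouse as a block (0.0307) and in DESeq2 (adjusted p = 0.0493), and had the opposite sign on the TPM scale (0.11 as log2(TPM + 1)) and in the deposited signal (0.08). In TPM it had 6.02, 7.09, 8.28 and 7.30 in FAC libraries and 5.40, 6.83, 7.02 and 7.01 in control libraries, and the groups overlapped. The deposited files also give a mean transcript length for each gene, weighted by the estimated share of its transcripts. For Lgals3bp this was 1562, 1587, 1519 and 1679 bases in FAC libraries and 2201, 2073, 2011 and 2289 bases in control libraries. The length was shorter with FAC in 4 of 4 mice, without overlap, at 0.741 of the control length. A comparison of the lengths, added after the data had been seen, covered 9938 genes, of which limma on the log2 length called 0 at an adjusted p under 0.05, Lgals3bp included (limma adjusted p = 0.373), although 7.48% had an unadjusted p under 0.05. Among these genes 3.02% were shorter and 1.76% longer with FAC without overlap of the libraries. TPM divides by this length, so the lower count and the shorter length together give a mean of 7.17 TPM in FAC libraries and 6.57 TPM in control libraries.

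**Figure D4:**
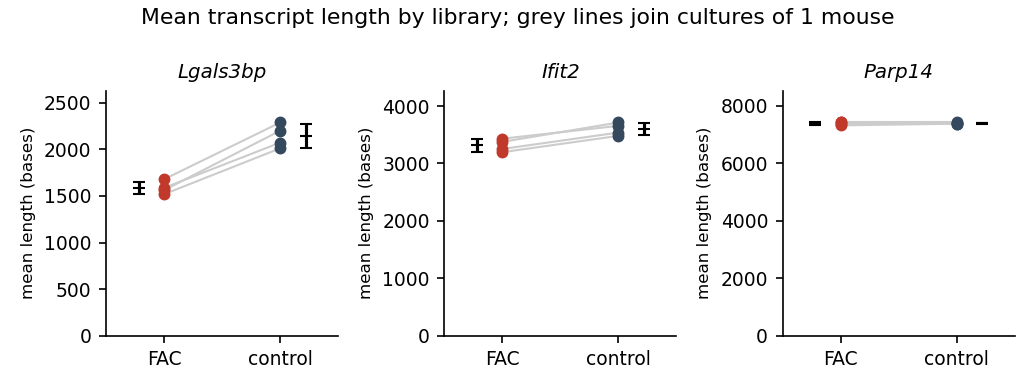
Mean transcript length in bases of Lgals3bp, Ifit2 and Parp14 in FAC and control libraries, with mean and SD beside the points and grey lines joining the cultures of each mouse. Lgals3bp sits at 1519 to 1679 bases with FAC and 2011 to 2289 bases in controls, whereas Parp14 lies between 7316 and 7417 bases in all 8 libraries.

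Among the other members, Ifi35 averaged 27.2 TPM in FAC libraries and 27.1 TPM in control libraries, and Ifi27l2a averaged 17.6 TPM in FAC libraries and 17.1 TPM in control libraries. Samd9l, the member with the highest positive estimate, had 0.953, 1.5, 1.31 and 0.900 CPM in FAC libraries and 0.714, 0.707, 1.25 and 0.282 CPM in control libraries. It was higher with FAC in 4 of 4 mice, but control library 3 lay within the FAC range, and the log2 change of 0.66 ± 0.37 (SE) did not pass (edgeR adjusted p = 0.374).

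The rest of the interferon pathway was described over 99 genes in 7 lists, of which 68 were tested. The lists were chosen with earlier results of these data known, so the counts of calls describe them and are no test of them. With FAC, 7 of the 68 tested genes were called higher by edgeR with the group alone, beside 2.18% of all genes tested. With the mouse as a block 9 were called higher and 2 lower, beside 4.07% higher and 2.8% lower of all genes tested. DESeq2 called 7 higher and 2 lower, beside 3.73% higher and 2.23% lower of all genes. Of the 21 ligand genes, 18 had 0 counts in every library, among them Ifnb1, all the Ifna genes listed, Ifnl2 and Ifnl3. Ifnk had 1 count in FAC libraries and 2 in control libraries, and Ifnz had 3 in FAC libraries and 2 in control libraries. Ifng, which encodes interferon gamma, had 0.762, 0.829, 0.688 and 0.821 CPM in FAC libraries and 1.07, 1.22, 1.05 and 0.774 CPM in control libraries. Its FAC values were below 3 of the 4 control libraries, and the log2 change of -0.41 ± 0.26 (SE) did not pass (edgeR adjusted p = 0.424).

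Of the 8 receptor and kinase genes, 7 were tested and 0 were called by edgeR with the group alone or by DESeq2, with 4 at an unadjusted p under 0.05, all higher, beside 18.4% of all genes in either direction. Ifnar1, a chain of the type I interferon receptor, had 42.4, 38.2, 45.2 and 40.5 CPM in FAC libraries and 36.8, 32.3, 38.9 and 35.9 CPM in control libraries. FAC was higher in 4 of 4 mice although the groups overlapped, and the log2 change of 0.21 ± 0.07 (SE) passed only with the block (edgeR adjusted p = 0.116 without it and 0.0164 with it). Ifnlr1, a chain of the type III interferon receptor, had 0 counts in every library.

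Stat2 and Irf9, parts of the complex that binds the ISRE, were not called. Stat2 averaged 6.00 TPM in FAC libraries and 4.96 TPM in control libraries, with a log2 change of 0.17 ± 0.10 (SE; edgeR adjusted p = 0.371). Irf9 averaged 13.5 TPM in FAC libraries and 12.5 TPM in control libraries, with a log2 change of 0.11 ± 0.08 (SE; edgeR adjusted p = 0.515). Irf7, itself induced by type I interferon, was too low to test, with 35 counts in FAC libraries together and 44 in control libraries together. Socs1, which inhibits the receptor kinases, had 19.5, 17.3, 19.8 and 15.6 CPM in FAC libraries and 22.8, 22.4, 27.2 and 20.6 CPM in control libraries. Its groups did not overlap, and the log2 change of -0.36 ± 0.09 (SE) passed with the block (edgeR adjusted p = 0.00424) and not without it (0.0561). Without the block it passed in DESeq2 (adjusted p = 0.00893), in edgeR with no filter on low counts (0.00223) and when FAC library 1 (0.0467) or control library 4 (0.0426) was left out.

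Among 12 nucleic acid sensor and adaptor genes, 10 were tested and 2 rose, beside 2.18% of all genes tested that were called higher. Ikbke, a kinase that activates Irf3 and Irf7, had 63.6, 66.0, 66.7 and 51.3 CPM in FAC libraries and 38.9, 40.6, 44.2 and 40.8 CPM in control libraries, without overlap, a log2 change of 0.59 ± 0.08 (SE; edgeR adjusted p = 0.000678). Tmem173, which encodes Sting, the adaptor for cytosolic DNA, had 99.5, 99.1, 106 and 111 CPM in FAC libraries and 76.4, 87.7, 86.5 and 91.0 CPM in control libraries. FAC was higher without overlap, with a log2 change of 0.28 ± 0.06 (SE; edgeR adjusted p = 0.0182), and the call ended without FAC library 3 (0.0822) or control library 3 (0.0530) and in limma on log2(TPM + 1) (0.0860) and on the log2 deposited signal (0.0900).

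Among 40 other interferon-stimulated genes, 34 were tested. By edgeR with the group alone 5 rose and 0 fell, beside 2.18% higher and 1.1% lower of all genes tested. At an unadjusted p under 0.05 there were 8 higher and 1 lower, a level that 18.4% of all genes reached. Samhd1, which depletes nucleotides needed by viruses, had 71.0, 75.1, 77.9 and 77.9 CPM in FAC libraries and 59.3, 64.3, 68.2 and 65.6 CPM in control libraries, a log2 change of 0.23 ± 0.05 (SE; edgeR adjusted p = 0.0307). Shisa5 had 443, 485, 508 and 493 CPM in FAC libraries and 379, 415, 416 and 409 CPM in control libraries, a log2 change of 0.25 ± 0.05 (SE; edgeR adjusted p = 0.0103). Neither gene's groups overlapped. The call of Samhd1 ended without FAC libraries 2, 3 or 4 or control libraries 1, 2 or 4, with an adjusted p up to 0.124, and in limma on log2(TPM + 1) (0.128) and on the signal (0.141), and that of Shisa5 without FAC library 3 (0.0558). The membrane protein genes Ms4a4b and Ms4a6b each rose by 0.29 on the log2 scale (edgeR adjusted p = 0.00563 for Ms4a4b and 0.00444 for Ms4a6b), and the call of Ms4a4b ended in limma on the signal (0.0629). Ms4a4c rose by 0.59 ± 0.15 (SE; edgeR adjusted p = 0.0462), at 3.54 ± 0.255 CPM in FAC libraries and 2.36 ± 0.174 CPM in control libraries (SD, n = 4 each), a call that ended when any of the 8 libraries was left out (0.0586 to 0.148) and in limma on log2(TPM + 1) (0.262) and on the signal (0.271). Ogfr had a log2 change of -0.14 ± 0.04 (SE) that passed with the block (edgeR adjusted p = 0.0465) and in DESeq2 (adjusted p = 0.0280) and not in edgeR without the block (0.0802).

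**Figure D5:**
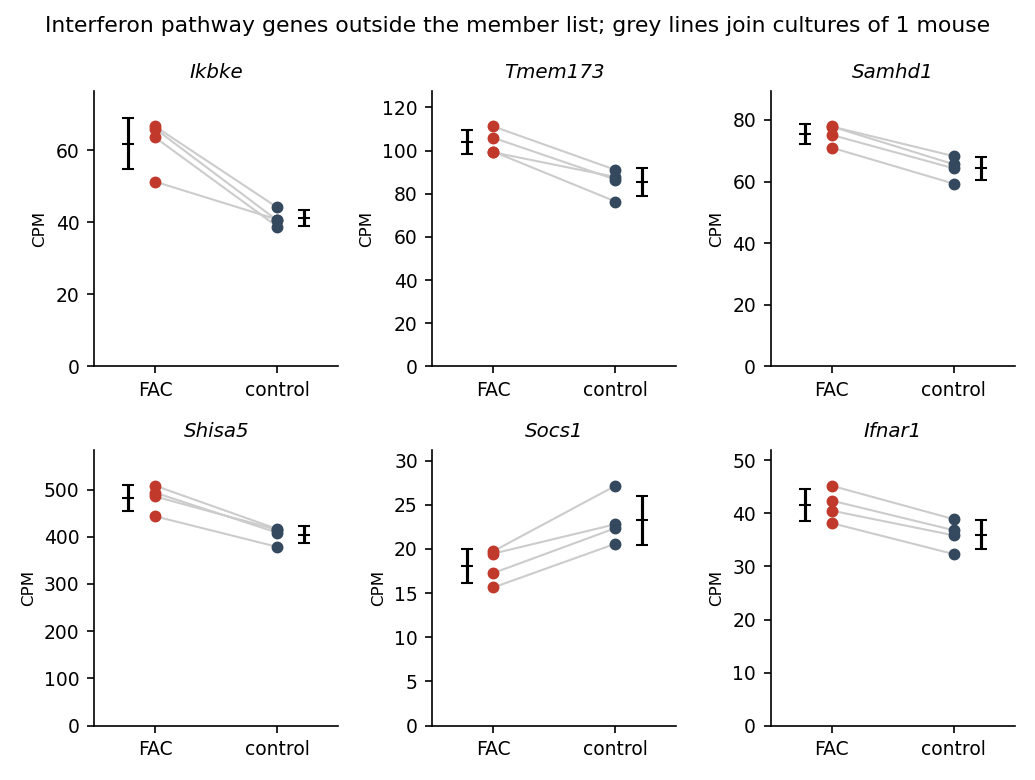
CPM of 6 interferon pathway genes outside the member list in FAC and control libraries, with mean and SD beside the points and grey lines joining the cultures of each mouse. Ikbke (51.3 to 66.7 CPM with FAC, 38.9 to 44.2 CPM in controls), Tmem173, Samhd1 and Shisa5 are higher in every FAC library than in any control library, Socs1 is lower, and the groups overlap for Ifnar1.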

How the data were processed

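RNA was measured in 8 libraries, each mouse giving a FAC and a control library. The labels' protocols state a stranded mRNA kit and 250 ng of RNA as input. Tools named in the submitters' processing notes, without their roles, are RSEM 1.3.1, STAR 2.7.6a, DESeq2 1.26.0, DESeq, R 3.6.3 and FastQC, and the build named is GRCm39; which annotation release and strand setting were used is not given in the labels or headers. The expected counts, the TPM values and the mean transcript lengths per gene were deposited by the authors as RSEM gene files, going by the file headers. A further deposited table holds a normalised signal for 13751 genes; how the authors scaled it is unknown here. Symbols came from that table and from GENCODE M21.

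Rounded expected counts were tested with edgeR 4.0.16 (R 4.3.3; quasi-likelihood, TMM factors, group only) after a filter on low counts (minimum count 10, minimum total 15). Calls are at an adjusted p under 0.05 (Benjamini-Hochberg, over the 13378 genes tested), and an adjusted p without another tool's name is from this test. CPM is on the TMM scale, and the SE is the size of the log2 change divided by the square root of F. Reads carry no molecular identifiers, and limits cover counting error only.

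Mouse numbers mark cultures of the same animal and so pair them; deviations of paired libraries from their group means correlated at r = 0.137, 0.0165, 0.0647 and 0.139 for mice 1 to 4. Alternatives were the mouse as a block, DESeq2 1.42.0, its size factors in edgeR, no filter, limma 3.58.1 on log2(TPM + 1), log2(TPM + 0.1) and log2(signal + 1), and leaving out each library. Per-mouse changes used log2(CPM + 0.5).

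Values in every library are given for members called with or without the block and the 6 with the highest mean TPM. The same holds for the 6 members with the largest absolute change and those just missing the threshold. Up to 10 called pathway genes by smallest p and the ligands were also chosen. Of these, Ms4a4b, Ms4a6b, Ms4a4c, Ogfr, Ifnk and Ifnz are given without the value of every library. Ifit2, Trim30a, Parp9, Stat2, Irf9 and Irf7 were added after values were seen. The members and gene lists were chosen with earlier results of these data known. 1 gene of the pathway lists and 1 marker gene are not reported here and are in no count of a list. Transcript identity was computed with Biopython 1.88. Fits were tested on simulated data with known changes.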

Additional observations from a re-analysis of the deposited data

Results flagged for a closer look

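Dhx58, which encodes the RNA sensor LGP2, had 2.24 CPM in FAC library 3, while the other FAC libraries had 1.5, 1.52 and 1.60 CPM, so this library stood apart from its group by the gap to its nearest neighbour relative to the group's range. This is 1 of 76 gene and group combinations checked, and chance gives about 5% of groups.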

How the results depend on the processing

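Against 438 genes called, DESeq2 called 797, edgeR without a filter 736, limma on log2(TPM + 1) 144 (112 higher and 32 lower, or 77.8% higher against 66.4% in edgeR's 291 and 147), on log2(TPM + 0.1) 138, and on log2(signal + 1) 156. Leaving out 1 library gave 147 to 549, with 168 without FAC 2, 147 without FAC 3, and 188, 209 and 247 without control 1, 2 and 3. Members called (1) became 2 in DESeq2, 0 in limma on TPM with either pseudocount (5 at an unadjusted p under 0.05) and on signal (6), and 0 to 2 with 1 library left out: 0 without FAC 3 (5 unadjusted) or control 1 (6 unadjusted), 2 without FAC 4. Pathway genes called (7) became 3 on signal and 3 to 7 with 1 library left out, 3 without FAC 3. The members' median ran from -0.04 to 0.04 with 1 library left out. Pairing by the replicate block gave 919 genes, 3 members (Ifitm2, Lgals3bp, Parp14) and 11 pathway genes. The block added the members Ifitm2 and Lgals3bp and the pathway genes Ifnar1, Helz2, Socs1 and Ogfr. It changed no other call among members and pathway genes. Chosen after seeing the data, the block without mouse 1 gave 601 genes and 1 member (Dtx3l in place of Parp14), without mouse 3 gave 165 genes and 0 members (6 unadjusted), and without mouse 4 gave 1217 genes, 2 members and 11 pathway genes. Signs reversed for Lgals3bp (0.11 and 0.12 on TPM, 0.079 on signal), Sp110 (0.016 and 0.016 on TPM, -0.021 to 0.010 with 1 library left out, 0.010 and 0.0073 with the block without mouse 2 or 4) and Adar (-0.038 on signal, -0.0071 to 0.056 with 1 library left out, -2.65e-05 with the block without mouse 2); of the values of single named genes under all alternatives, 328 kept direction and side of the threshold, 39 lost and 20 gained a call and 12 reversed; the cause was not tested. The 14 untested members had too few counts to test, and some low members had wide intervals.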

Other observations

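In the comparison of mean transcript length, added after the data had been seen, 743 of 9938 genes had an unadjusted p under 0.05 and limma called 0. Lgals3bp ranked 1 of 9938 by p. Of the 21 members in this comparison, 2 had an unadjusted p under 0.05, Lgals3bp and Ifit2. Ifit2 had a mean length of 3196, 3376, 3432 and 3253 bases in FAC libraries and 3481, 3714, 3655 and 3538 bases in control libraries. The groups did not overlap, at 0.921 of the control length (limma adjusted p = 0.499). The lengths are the authors' estimates, and the transcripts behind them were not analysed here.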
